A study of Mus musculus with 2 samples.

Results

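The machinery that moves secretory proteins into the endoplasmic reticulum (ER) and on to the Golgi was described in liver RNA from apolipoprotein E-deficient mice. The rule named 51 genes, and 47 of them had at least 1 probe set annotated to a single gene symbol, out of 12393 such genes on the array. Sec61g, Srp72, Sec24a and Tmed2 had no such probe set and were not analysed here. Each gene was read on its probe set of highest mean log2 signal over both pools. The rule lists genes by function and picks none by a measured value, although signal decides the probe set of each. It was drawn up with earlier results of these data known.

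All mice were male, apolipoprotein E-deficient and on a C57BL/6J/OLA129 background, with a stated age of 2 months. The control group was 1 pool of mice given chow and a drink of 1% glycerol in water. The squalene group was 1 pool given the same diet, with squalene in the glycerol drink to supply 1 g per kg per day, and both regimens lasted 10 weeks. Squalene is a triterpene that the cholesterol pathway makes on its way to sterols. Each pool was hybridised to 1 Affymetrix array, the labels do not state how many animals a pool held, and no between-group test was possible. Every ratio below therefore compares these 2 pools, with the control pool as the background.

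Proteins bound for secretion carry a signal peptide that the signal recognition particle (SRP) binds as it leaves the ribosome. SRP brings the ribosome to the Sec61 channel, where the chain is threaded into the ER, the signal peptide is cut off by signal peptidase, and N-linked glycans are added by oligosaccharyltransferase. Folded cargo leaves in vesicles coated by COPII, while COPI coats return escaped residents from the Golgi. Hepatocytes run this route at high rate because they supply most plasma proteins and assemble lipoproteins in the ER.

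Signals are MAS5 values in array units on a linear scale, and ratios are log2 of the squalene over the control signal. The 75th percentile of all signals was 158 on the control array and 165 on the squalene array. All 47 genes lay at or above the 75th percentile on both arrays. For actin, the 3′ probe set read 2.80 times the 5′ one in the control and 2.48 times in the squalene pool. All 18 spike-in probe sets were lower with squalene (median log2 ratio -0.26), and scaling to them would raise every ratio below by 0.26. Apoe read 141.0 and 130.6 on 1 probe set whose place relative to the deletion is not given, so it checks nothing.

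The secretory machinery read nearly alike in both pools. The 47 genes had a median log2 ratio of 0.03, with 30 above 0 and 17 below. Their range ran from -0.34 for Sec11c, a 1.26-fold lower signal, to 0.46 for Sar1a, a 1.38-fold higher one. None passed a log2 ratio of 0.5 in either direction, 0 higher and 0 lower, nor the submitters' screening limit of 1.5. Past 0.5 lay 41.3% of all 12393 genes, 14.2% of the 6452 that reached the array median in both pools, and 7.17% of the 3431 that reached the 75th percentile in both. Past 1.5 lay 0.0874% of those 3431 bright genes, which are the ones like these 47 in signal.

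A narrower limit of 0.3 was passed by 7 of the 47 (14.9%) and by 21.8% of the 3431 bright genes. The 4 higher genes were Sar1a, Sec63, Stt3a and Sec23a, beside 11.7% of bright genes, and the 3 lower genes were Sec11c, Calr and Rpn1, beside 10.1%. Where a gene had 2 or more probe sets at or above the 75th percentile on both arrays, these could be compared. Their log2 ratios had a pooled SD of 0.17 within the 22 such genes of the 47, and of 0.19 within all 957 such genes on the array. With probe sets at or above the array median on both arrays it was larger, 0.23 within 25 of the 47 genes and 0.29 within 2141 genes. This is a spread between probes and not between animals.

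**Figure D1:**
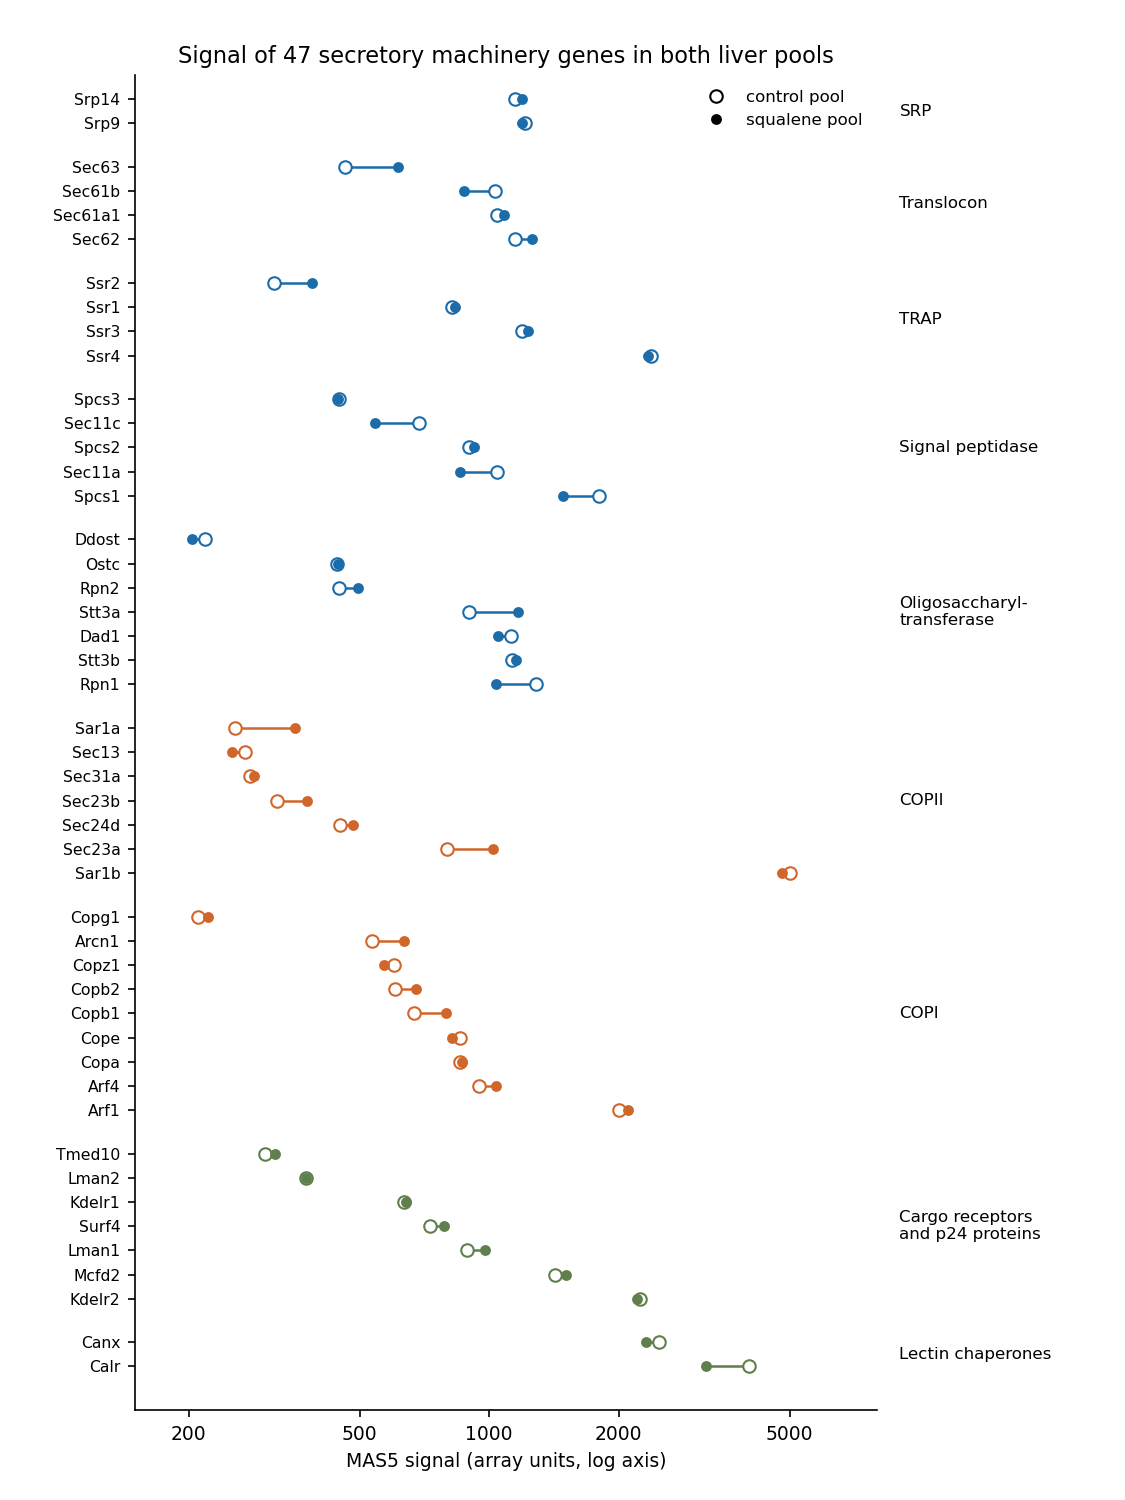
MAS5 signal (array units, log axis) of each of the 47 genes in the control pool (open circles) and the squalene pool (filled circles), 1 array each, joined by a line and ordered by control signal within each part of the machinery. Most pairs nearly overlap; the longest lines are those of Sar1a, Sec63, Stt3a and Sec23a, which read higher with squalene, and of Sec11c, Calr and Rpn1, which read lower.

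Of the SRP subunits, Srp9 and Srp14, which together form the domain that pauses elongation, were near 0 on their brightest probe sets. Srp9 had a signal of 1208.8 without and 1192.3 with squalene (log2 ratio -0.02), and its second probe set, at 612.6 and 541.2, gave -0.18. Srp14 was at 1150.1 and 1193.0 (0.05) on its brightest probe set, but its other 3 probe sets read from -0.35 to -0.12. The direction of Srp14 therefore depends on the probe set, and the median of both genes was -0.14 with the mean of their probe sets.

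The channel itself did not move as one. Sec61a1, the pore-forming subunit, read 1043.3 and 1083.6 (0.05), and its 6 probe sets ran from -0.08 to 0.29. Sec61b, a small tail-anchored subunit of the same channel, read 1032.6 and 872.0 (-0.24) on its only probe set. Sec62 and Sec63 are membrane partners of the channel that serve in post-translational import, Sec63 by recruiting the ER chaperone BiP.

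Sec62 read 1148.3 and 1260.5 (0.13), while its other well-read probe sets were at -0.00 and -0.04. Here well read means at or above the array median in both pools. Sec63 had the highest ratio among translocation genes, at 461.3 and 614.4 (0.41). That probe set carries the suffix for probes shared between related transcripts, and the other 3 of Sec63 read -0.03, 0.05 and 0.24. The height of Sec63 rests on 1 of its 4 probe sets. Of the 47 chosen probe sets, 24 had a suffix other than the plain one.

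The translocon-associated protein complex (TRAP), which helps some signal peptides open the channel, lay close to 0 for 3 of its 4 subunits. Ssr1 read 820.3 and 831.0 (0.02), Ssr3 read 1195.0 and 1229.8 (0.04), and Ssr4 read 2377.9 and 2334.2 (-0.03). Ssr2, the beta subunit, was the exception at 315.3 and 387.9 (0.30) on its only probe set. The dimmer probe sets of Ssr4 went both ways. A well-read probe set with much lower signals, 95.0 and 48.9, gave -0.96. Another, below the array median in the control pool, was at 27.3 and 59.4 and gave 1.12. The mean over all probe sets of Ssr4 was 0.05.

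Signal peptidase was the part of the machinery with the lowest median, -0.28 over 5 genes, of which 4 lay below 0. Sec11a and Sec11c encode the alternative catalytic subunits. Sec11a read 1041.7 and 855.7 (-0.28). Sec11c read 685.5 and 542.3 (-0.34) on its only probe set. Sec11a was thus 1.22-fold lower and Sec11c 1.26-fold lower with squalene.

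Spcs1, a small accessory subunit, read 1798.1 and 1484.6 (-0.28), and a second probe set at 1711.9 and 1125.5 gave -0.61. Spcs2 and Spcs3, the other accessory subunits, did not share this, at 896.7 and 923.4 (0.04) and at 448.4 and 445.4 (-0.01). The median of the 5 genes was -0.28 after quantile normalization and -0.25 after loess. Over the 4 with a plain-suffix probe set it was -0.15, and then TRAP (-0.47 over 2 genes) and SRP (-0.18 on 1 gene) were lower. Scaled to the spike-ins it was -0.02, so the lower level of this complex is relative to the other genes on the array. It was also -0.01 with the mean of all probe sets of each gene, where the second probe set of Sec11a, with signals of 1.8 and 2.9, enters at 0.69, and the lectin chaperones then had the lowest median (-0.28).

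The 7 oligosaccharyltransferase genes went both ways, with a median of 0.01 that was -0.02 after quantile normalization and -0.01 after loess. Stt3a and Stt3b encode the alternative catalytic subunits, the first acting on chains as they enter the ER and the second mostly after. Stt3a read 897.8 and 1165.3 (0.38) on a probe set without a plain suffix, and its second well-read probe set, with a plain suffix, gave 0.19. Stt3b read 1128.9 and 1152.2 (0.03), with a second probe set at 162.9 and 229.4 (0.49). All well-read probe sets of both catalytic genes thus lay above 0.

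Rpn1, a ribophorin that brings substrates to the catalytic subunit, lay on the other side, at 1284.6 and 1038.6 (-0.31). All 5 of its probe sets were below 0, between -0.42 and -0.20, with a mean of -0.30 ± 0.08 (SD over 5 probe sets). None of them has a plain suffix. Rpn2, its partner ribophorin, read 447.2 and 495.7 (0.15) on 1 probe set. Subunits of the same enzyme thus stood on opposite sides of 0.

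The remaining subunits were near 0. Dad1 read 1120.9 and 1049.6 (-0.09), with -0.22 on its second probe set. Ddost was at 218.6 and 203.9 (-0.10), and Ostc, which links the enzyme to the channel, at 441.7 and 445.5 (0.01).

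COPII begins with the GTPase Sar1, which anchors the inner coat of Sec23 and Sec24 and then the outer cage of Sec13 and Sec31. The 7 measured genes had a median log2 ratio of 0.10, with 5 above 0. The 2 Sar1 paralogs differed: Sar1a read 256.0 without and 352.8 with squalene (0.46), with 0.18 on its second probe set. Sar1b, the paralog needed for export of chylomicrons, read 4996.8 and 4788.6 (-0.06) on its only probe set.

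Both Sec23 genes, which encode the subunit that activates the Sar1 GTPase, lay above 0. Sec23a read 798.2 and 1021.2 (0.36), and Sec23b 320.7 and 377.3 (0.23), on 1 probe set each. The cargo-binding Sec24d was at 450.5 and 482.1 (0.10). Of the outer cage genes, Sec31a was at 277.4 and 283.6 (0.03) and Sec13, which also serves in nuclear pores, was at 269.7 and 252.8 (-0.09). Each of these 5 genes was read on a single probe set.

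COPI is a preassembled heptamer that the GTPase Arf1 brings to Golgi membranes. Its 9 measured genes had a median of 0.07, with 7 above 0 and a range from -0.08 to 0.25. With the mean of well-read probe sets the median was 0.02, with 4 genes below 0. With the mean of all probe sets it was -0.06, with 6 below 0. Copb1, the beta subunit, read 670.0 and 795.3 (0.25). Arcn1, the delta subunit, read 535.1 and 633.2 (0.24), with 0.26 on its second probe set.

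Copb2 was at 604.6 and 674.9 (0.16), but its dimmer probe set gave -0.19. Copg1 likewise read 210.3 and 221.3 (0.07), with -0.44 on its dimmer one. Copa, at 857.2 and 866.5 (0.02), Cope, at 853.9 and 820.7 (-0.06), and Copz1, at 601.3 and 570.7 (-0.08), lay within 0.1 of 0. The subunits of the heptamer therefore ran from just below 0 to 0.25.

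Arf1 read 2007.7 and 2097.4 (0.06). Arf4, a related GTPase of the early Golgi, read 947.9 and 1037.8 (0.13), and a second probe set gave 0.57, the only well-read probe set of any of the 47 genes above 0.5. Another Arf4 probe set was near the floor, at 14.9 and 0.5. In all, 4 of 92 well-read probe sets lay past 0.5 in either direction. The others were dimmer ones of Ssr4 (-0.96) and Canx (-0.94), and the second one of Spcs1 (-0.61), nearly as bright as its first in the control pool. The share over all well-read probe sets was not computed. Among the 6452 well-read genes, on 1 probe set each, 14.2% lay past 0.5.

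**Figure D2:**
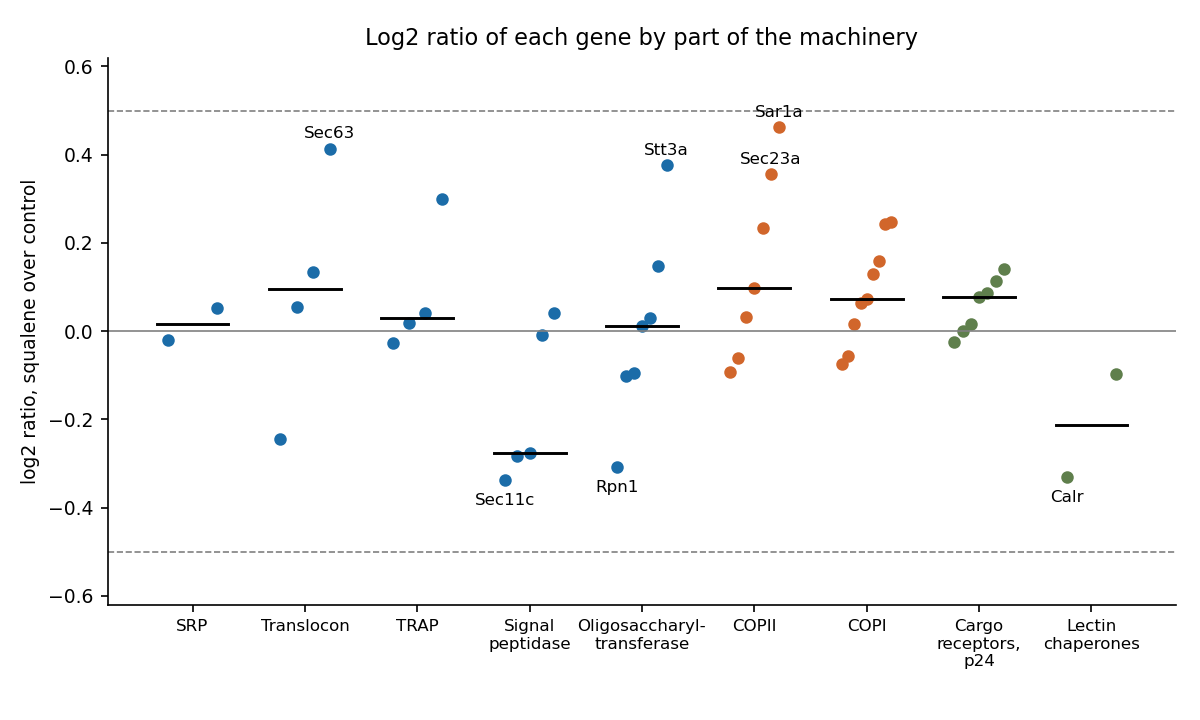
Log2 ratio (squalene over control pool) of each of the 47 genes on its brightest probe set, by part of the machinery, with black bars at the medians and dashed lines at 0.5 and -0.5. No gene lies outside the dashed lines; signal peptidase has the lowest median (-0.28), and 12 of the 16 coat genes lie above 0.

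Set against each other, the translocation and glycosylation genes and the vesicle coat genes had medians on the same side of 0. The 22 genes of SRP, channel, TRAP, signal peptidase and oligosaccharyltransferase had a median log2 ratio of 0.02, with 12 above 0 and 10 below. The 16 coat genes had a median of 0.09, with 12 above 0, beside 49.7% of the 3431 bright genes. These counts depended on the probe set used. With the mean of well-read probe sets, 6 of the 16 coat genes and 11 of the 22 others lay below 0. With the mean of all probe sets, 8 of the 16 and 12 of the 22 did. The median of the first set was lower by 0.07, and with 1 array per pool the difference has no test.

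The lowest coat gene, Sec13, stood at -0.09. Below that lay 7 of the 22 translocation and glycosylation genes (31.8%), down to -0.34, and 35.3% of the 3431 bright genes, so the share in the first set was near the background. At the upper ends Sar1a (0.46) and Sec63 (0.41) were alike. The 4 coat GTPases had a median of 0.10 and the other 12 coat genes 0.09, so on the deposited signals the coat median did not rest on the GTPases. This depended on scaling. After quantile normalization the coat median was 0.09 with the GTPases and 0.04 without them, and after loess it was 0.09 and 0.05.

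**Figure D3:**
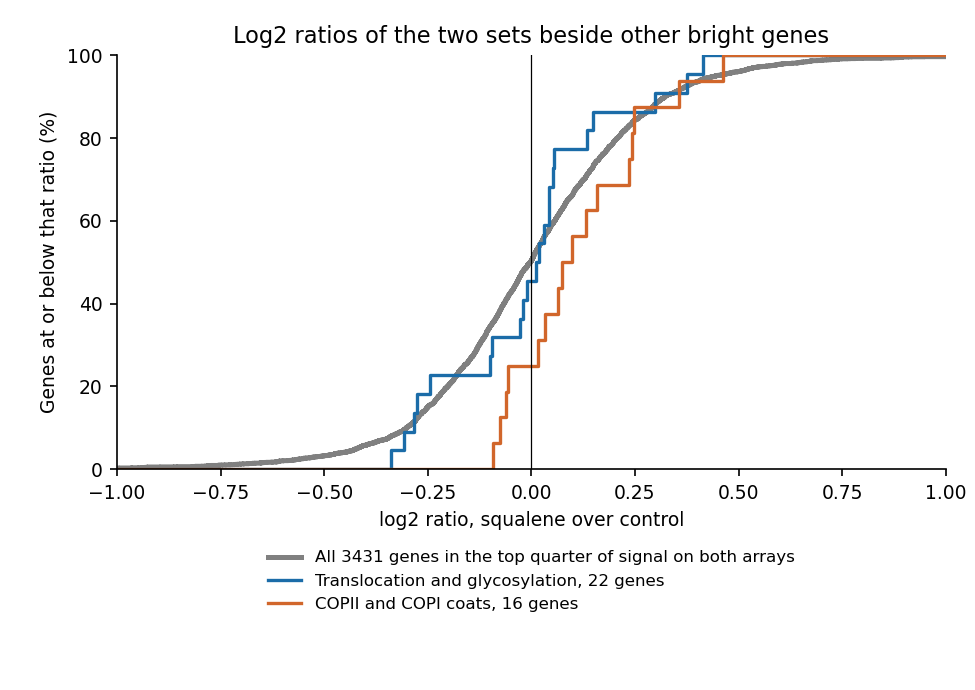
Cumulative share of genes (%) at or below each log2 ratio (squalene over control pool) for 22 translocation and glycosylation genes, 16 coat genes and all 3431 genes at or above the 75th percentile of signal on both arrays; ratios beyond 1 in size are off the axis. The coat curve lies to the right of the grey one at its lower end, starting at -0.09, and the blue curve crosses the grey one near 0.

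Cargo receptors and recycling receptors formed a tight group, with 7 genes between -0.03 and 0.14 and a median of 0.08. Lman1 (ERGIC-53) and Mcfd2 form the receptor that exports coagulation factors V and VIII. Lman1 read 885.9 and 977.3 (0.14), and all 4 of its probe sets lay above 0, from 0.03 to 0.20. Mcfd2 read 1420.4 and 1508.1 (0.09).

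Surf4, a receptor for lipoproteins and other soluble cargo, read 726.4 and 785.4 (0.11), with 5 probe sets from -0.02 to 0.46. Tmed10, a p24 protein, was at 301.5 and 318.0 (0.08), and the lectin Lman2 at 374.9 and 375.2 (0.00). The KDEL receptors return chaperones from the Golgi. Kdelr1 read 634.3 and 641.9 (0.02) and Kdelr2 read 2244.1 and 2205.1 (-0.03), so both lay near 0, although the second probe set of Kdelr2 was at -0.38.

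The lectin chaperones calreticulin and calnexin hold newly glycosylated proteins while they fold. Calr, the soluble one, read 4022.3 and 3200.8 (-0.33), a 1.26-fold lower signal with squalene. Its 3 probe sets lay close together, from -0.36 to -0.28, with a mean of -0.33 ± 0.04 (SD over 3 probe sets). Canx, the membrane-bound one, read 2477.2 and 2317.5 (-0.10), and its dimmer probe sets read 0.32 and -0.94. Calr was lower on every probe set, none of which has a plain suffix, whereas the direction of Canx was not settled.

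**Figure D4:**
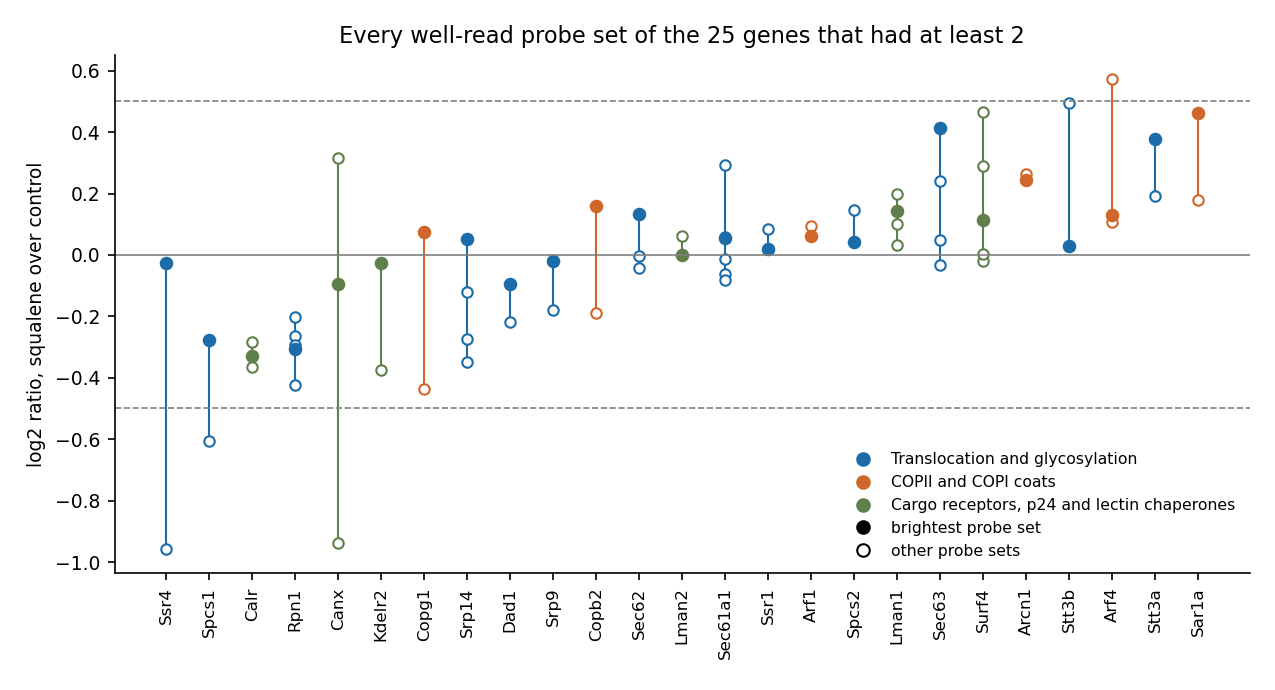
Log2 ratio (squalene over control pool) of every well-read probe set of the 25 genes that had at least 2, ordered by their mean, with the brightest probe set filled and the others open; lines span the range and dashed lines mark 0.5 and -0.5. The probe sets of Calr and Rpn1 lie close together below 0 and those of Arcn1 close together above 0, while those of Canx and Copg1 span 0.

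Agreement between probe sets differed from gene to gene. Of the 25 genes with at least 2 well-read probe sets, 7 had all of them below 0, 10 had all above 0, and 8 had them on both sides. The genes with all well-read probe sets below 0 were Calr, Rpn1, Spcs1, Ssr4, Dad1, Srp9 and Kdelr2. Those with all well-read probe sets above 0 included Sar1a, Stt3a, Stt3b, Arcn1, Arf1, Arf4 and Lman1. Probe sets below the array median in either pool were left out of these counts, and that of Ssr4 lay above 0. A single probe set was all there was for 21 genes, among them Sec11c, Sec61b, Sec23a and Sec23b.

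Some of the 47 genes carry known ER stress motifs near their start. RefSeq promoter windows (build GRCm38.p6, 250 bases before to 50 after the start) were held for 39 of them. The ER stress response element, CCAAT and CCACG spaced by 9 bases, was searched on both strands. It was found for Calr and Canx, the 2 lectin chaperones, and in 0.119% of all 32851 windows. Its second form, ATTGG and CCACG spaced by 1 base, was found for none of the 39. The core TGACGTGG of the unfolded protein response element, a sequence bound by XBP1 and related bZIP factors, was found for 5 genes and in 0.676% of all windows. The reverse complement of this core begins with CCACG, but each of the 7 genes held a single site and no sites overlapped.

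The 5 genes with the core were all coat genes: Sec23a, Sec24d, Copb1, Copb2 and Arf1, out of 15 coat genes with a window. The stretches of 100 bases below are shown because the first kind of site was found for lectin chaperones and the second for coat genes. They are written 5′ to 3′ along the gene, with the matched letters in capitals, on whichever strand the match lay.
Calr, chr8:84847035-84847134, minus strand: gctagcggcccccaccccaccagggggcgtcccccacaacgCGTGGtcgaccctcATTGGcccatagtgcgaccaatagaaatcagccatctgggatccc
Canx, chr11:50325760-50325859, minus strand: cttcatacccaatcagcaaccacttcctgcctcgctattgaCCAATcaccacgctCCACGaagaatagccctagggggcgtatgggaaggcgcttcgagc
Sec23a, chr12:59011968-59012067, minus strand: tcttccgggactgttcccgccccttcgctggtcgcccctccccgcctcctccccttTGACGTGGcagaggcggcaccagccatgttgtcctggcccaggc
Sec24d, chr3:123267424-123267523, plus strand: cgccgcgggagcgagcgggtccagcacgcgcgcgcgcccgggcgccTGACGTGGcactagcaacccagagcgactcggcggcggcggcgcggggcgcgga
Copb1, chr7:114254655-114254754, minus strand: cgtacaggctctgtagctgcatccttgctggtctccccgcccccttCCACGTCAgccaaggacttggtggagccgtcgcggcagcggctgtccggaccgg
Copb2, chr9:98563678-98563777, plus strand: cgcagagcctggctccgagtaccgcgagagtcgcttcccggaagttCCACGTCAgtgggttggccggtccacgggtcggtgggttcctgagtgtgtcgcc
Arf1, chr11:59228193-59228292, minus strand: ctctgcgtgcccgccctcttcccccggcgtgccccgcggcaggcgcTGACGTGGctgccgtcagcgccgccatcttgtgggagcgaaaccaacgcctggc

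The element starts 162 bases before the start of Calr and 145 before that of Canx. The core lies 26 bases before the start of Sec24d and 28 before that of Copb1, spans the start of Copb2, and begins at base 7 of the transcribed part of Sec23a. The Arf1 site is 84 bases before the start in one of its windows and in the other, from a second start, begins 21 bases past it. The genes with the element had log2 ratios of -0.33 and -0.10, and the 5 with the core ranged from 0.06 to 0.36, with a median of 0.16. The 10 coat genes with a window but no core had a median of 0.02 and ranged from -0.09 to 0.46, so the ranges overlap. These matches describe letters in the window, base composition was not matched, and binding was not measured. Xbp1 itself read 3175.5 and 3101.3 (-0.03).

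Other genes of the same route, 70 named by function, were found for 59 and well read for 54. Those 54 had a median log2 ratio of -0.07, with 24 above 0 and 30 below. Of these, 2 were higher than 0.5 and 1 lower than -0.5, beside 7.84% and 6.34% of all 6452 well-read genes. The 2 higher were Magt1, an oxidoreductase subunit of the Stt3b enzyme, at 130.1 and 208.1 (0.68), and Ergic2, a protein that cycles between ER and Golgi, at 162.4 and 244.9 (0.59). A second well-read probe set of Ergic2 gave 0.35. The 1 lower was Copz2, a paralog of the COPI subunit Copz1, at 132.7 and 72.3 (-0.88) on its only probe set.

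Some dimmer genes of that list went further but had a signal below the array median in 1 pool or both. Tusc3, the alternative to Magt1 in the same enzyme, read 39.7 and 66.6 (0.75), and Sec61a2, a paralog of the channel gene Sec61a1, read 35.6 and 65.3 (0.88). Mia2, an ER exit site protein, read 47.1 and 18.0 (-1.39). Kdelr3 was near the floor, at 1.4 and 2.4. Magt1 and Tusc3 thus both read higher with squalene, on 1 probe set each. Other oligosaccharyltransferase subunits of that list, all well read, went the other way. Krtcap2 read 763.2 and 603.7 (-0.34), with -0.06 on its second probe set. Ost4 read 1188.3 and 1011.7 (-0.23), and Tmem258 read 58.8 and 50.6 (-0.22). The added subunits of this enzyme therefore had no common direction.

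The cargo of this machinery was also near 0. All 24 measured genes of proteins that hepatocytes secrete, the defining markers of the labelled tissue, had high signals in both pools, none under 1740.2. Their median log2 ratio was -0.10, with 21 below 0 and 0 past 0.5 in either direction. They ran from -0.27 for Serpina1c to 0.07 for Apob. Of the 3431 bright genes, 50.3% were below 0. The arrays also differed at the top of the scale, where the highest signal was 22342.9 without and 20695.1 with squalene. Sar1b, at 4996.8 and 4788.6, moved from -0.06 to 0.03 after quantile normalization and to 0.02 after loess. Whether the ratios of these secreted-protein genes depend on such scaling was not tested. Alb read 16656.0 and 14625.1 (-0.19).

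Markers of other liver cells moved beside this. All 14 macrophage markers found were below 0, 10 of them past -0.5, with a median of -0.68 and a summed signal of 6606.8 without and 4187.8 with squalene. Of the 11 well-read ones 7 were past -0.5, beside 6.34% of all 6452 well-read genes. Of 7 well-read stellate cell markers 5 were past -0.5. Of all 10 found 6 were past -0.5, and 2 that were not well read lay above 0.5. The 7 summed to 3709.3 and 3312.8, mostly from Dcn (2540.5 and 2415.0). The 8 well-read endothelial markers had a median of -0.09, with 3 above 0 and 5 below. Their sum was 1685.0 and 1309.2, with the largest part from Clec4g (864.9 and 522.2), while Stab1 was higher, at 105.5 and 152.5 (0.53). In such bulk samples fewer cells of a type and less RNA per cell cannot be told apart. Of 8 plasma cell markers found 5 were well read, with Derl3 at 360.9 and 185.3 (-0.96), and the list summed to 5782.2 and 5443.8, most of it from Xbp1 and Sdc1 (2032.5 and 1968.1). Of the 8 found, 4 lay above 0 and 4 below, so the list had no common direction. Igha read 111.5 and 37.8 (-1.56), below the array median with squalene, while the well-read Ighm read 48.1 and 78.8 (0.71). Jchain read 40.3 and 44.1, beside array medians of 40 and 41.5, and Tnfrsf17 1.1 and 2.0. In bulk liver the signals of Xbp1, Sdc1 and Derl3 need not come from plasma cells, so the sum of this list does not measure those cells. Of 12 exocrine pancreas markers 2 were well read, Cela1 at 528.3 and 424.7 and Prss2 at 63.8 and 48.2, and the list summed to 774.2 and 641.9. Of the bile duct markers, 0 of 5 reached the array median. All these cells also express the secretory machinery, and their part in the ratios above was not tested.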

How the data were processed

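Liver RNA of 2 pools was measured on Affymetrix mouse arrays, 1 array per pool, and pools were grouped by their titles, since the growth text is the same for both. The deposited intensity of each probe set is a linear MAS5 signal, per the submitters' processing notes. No label or file states its version, and detection calls were not used. Both arrays had a 2%-trimmed mean of 200.1. Of 22690 probe sets, 64 were controls, 20380 had 1 gene symbol, 691 several and 1555 none; only the first kind was named. Symbols came from the platform annotation, and all 47 genes found matched RefSeq by Entrez number with 0 changed symbols.

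The log2 ratio was taken without a pseudocount or filter. No test fits 1 array per pool, and the number of arrays limits the precision. The members, lists and limits were chosen with earlier results of these data known. Members were named where past 0.5, at the ends of their subgroup, or as Sec61a1, Calr and Canx, with the rest by value. Other pathway genes were named past 0.5, among the extremes, or as oligosaccharyltransferase subunits. Other lists were named by up to 3 members, with more for plasma cells. The limit of 0.3 was an alternative. The comparison with genes above the 75th percentile was added after the values were seen, as was Xbp1. The alternatives were filters, a floor, centring, quantile and loess normalization (limma 3.58.1, R 4.3.3), spike-in scaling, a pseudocount of 3.0, other probe set choices and other limits. Steps were tested on simulated data. Python 3.11.15, numpy 2.4.6, pandas 2.3.3, scipy 1.17.1 and matplotlib 3.10.9 were used.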

Additional observations from a re-analysis of the deposited data

How the results depend on the processing

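The median of the 47 genes stayed above 0 under all 12 alternatives, from 0.01 to 0.29, and that of the coat genes from 0.00 to 0.34. The coat median stayed above that of the translocation and glycosylation genes under all 14, with the latter lower by 0.05 to 0.14 (differences of -0.05 to -0.14). Several of these could not alter the difference, which stayed at -0.07. Centring and spike-in scaling shift both sets alike, and the filters and the floor changed no chosen value. Scaling to the spike-ins gave medians of 0.29 for all genes, 0.27 for translocation and glycosylation and 0.34 for coats, with 7 genes above 0.5. The translocation and glycosylation median turned negative when all probe sets per gene were averaged (-0.0492), with the probe set of smallest ratio (-0.0120) and with plain-suffix probe sets only (-0.00968). Those settings put 1, 0 and 3 genes below -0.5. With the limit at 0.3, 4 genes were higher and 3 lower. The mean over well-read probe sets, added after the values were seen, put 0 genes past 0.5. No paired analysis was possible because each group is 1 pool. All 47 genes passed both filters, so those settings changed nothing.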
